A study of Mus musculus with 48 samples.

Results

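Glycolysis and fructose handling in the liver was followed here through 8 listed genes, Pklr, Khk, Gpi1, Pfkl, Slc2a2, Gckr, Pfkfb1 and Tpi1. Of these, 6 had a probe set annotated to 1 gene symbol, out of 22180 genes with such a probe set on the array, and all 6 were among the 16926 genes tested. Gpi1 and Pfkfb1 had no probe set annotated to them alone and were not analysed here. Each of the 6 genes had 1 such probe set, so no choice between probe sets was needed. Total liver RNA came from 48 mice, 1 Affymetrix array per mouse, and 1 mouse was taken from each cage. The mice ate freely from 3 weeks of age one of the study's diets and were culled at 15 months. Diets are written as the percentage of energy from protein, carbohydrate and fat, in that order, and each was offered at a Low, Medium or High energy level. The 48 mice fell into 20 combinations of composition and energy level, with 1 to 4 mice in each.

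The carbohydrate-rich diet was set against the fat-rich one at each protein share. These were 75/20 against 20/75 at 5% protein with 48/48 between them, 57/29 against 29/57 at 14%, 65/12 against 38/38 at 23%, and 47/20 against 20/47 at 33%. At 42% and 60% protein there was 1 composition each, 42/29/29 and 60/20/20. There were 10 mice at 5% protein, 9 at each of 14, 23 and 33%, 5 at 42% and 6 at 60%. Energy was Low in 5 mice, Medium in 14 and High in 29, and every mouse at 5% protein ate a High energy diet, so the lowest protein share and the High level cannot be told apart there. The sample labels give no sex or strain for a mouse.

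The liver takes up glucose and fructose through a high-capacity transporter, phosphorylates them, and splits them into triose phosphates that enter lower glycolysis. Glucose entry is gated by glucokinase, which its regulatory protein holds in the nucleus, and by phosphofructokinase. Fructose bypasses phosphofructokinase, because ketohexokinase and aldolase feed it in below that step. The carbohydrate response element binding protein ChREBP (Mlxipl) is known to raise transcription of Pklr and of lipogenic genes in sugar-fed liver, through a DNA element made of a pair of E-boxes.

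The promoter windows of Pklr and Khk are shown because these 2 genes had the smallest unadjusted p for carbohydrate against fat. Both are RefSeq windows of GRCm38.p6, from 250 bases before the annotated start to 50 bases after it, on the plus strand, at chr3:89136373-89136672 for Pklr and chr5:30921309-30921608 for Khk. Capitals mark the paired E-box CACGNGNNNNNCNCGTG in Pklr and the single E-box CACGTG in Khk.
Pklr: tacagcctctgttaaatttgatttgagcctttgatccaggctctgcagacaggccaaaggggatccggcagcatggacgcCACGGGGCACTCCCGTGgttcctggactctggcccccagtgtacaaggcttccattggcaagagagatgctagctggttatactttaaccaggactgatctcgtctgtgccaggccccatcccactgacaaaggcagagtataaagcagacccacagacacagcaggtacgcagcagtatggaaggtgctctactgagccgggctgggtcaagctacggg
Khk: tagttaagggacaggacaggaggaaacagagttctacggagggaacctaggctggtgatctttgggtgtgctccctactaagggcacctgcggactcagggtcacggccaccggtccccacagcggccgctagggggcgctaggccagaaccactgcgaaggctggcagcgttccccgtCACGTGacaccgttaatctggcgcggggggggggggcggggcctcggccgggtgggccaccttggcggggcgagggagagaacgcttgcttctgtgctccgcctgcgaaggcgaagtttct
The pair in Pklr, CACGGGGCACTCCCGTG, began at position -170 from the start, and the Khk E-box at position -71. Both patterns read the same on the 2 strands. The paired pattern was found in 15 of 32851 windows of the same length (0.0457%) and CACGTG in 2349 (7.15%). All 6 genes matched a RefSeq window. Neither pattern occurred in the windows of Slc2a2, Gckr, Pfkl or Tpi1, nor in a second Pklr window, at chr3:89135892-89136191. A match is a match of letters only.

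Levels are log2 values as deposited, and a probe set's level is compared between mice but not with another probe set's. The arrays' medians lay between 1.57 and 1.86 and their interquartile ranges (IQR) between 2.78 and 3.63. The single mouse on Medium energy 14/29/57, mouse 118, stood apart. Its hepatocyte markers (6 of 6 measured) averaged 10.70, against 11.58 to 11.88 in the other mice. Its macrophage markers (5 of 5 measured) averaged 10.18, against 5.07 to 7.82 in the other mice. Its endothelial markers (5 of 5) averaged 8.16, against 5.43 to 7.43, and its 2 measured erythroid markers averaged 4.01, against 1.30 to 2.98. Pancreatic, muscle, adipocyte, biliary, stellate and lymphocyte lists did not set it outside the other mice. Its intestinal and renal list was the lowest, at 2.36 against 2.47 to 3.12. That list's mean is carried by Fabp2 (9.22 over the 48 mice), while its other genes averaged 0.96 to 1.48. It is not read here as intestinal or renal epithelium. This mouse was the lowest of 48 for Slc2a2, Gckr, Khk and Pklr and the highest for Pfkl and Tpi1. For Khk the next lowest mouse was almost level with it, at 9.543 against 9.539. For Slc2a2, Gckr and Pklr the next lowest had 9.47, 8.28 and 7.80, against 8.90, 6.81 and 6.98. A list's mean does not show whether its genes moved alike in mouse 118. Over the 48 mice, the SD of single hepatocyte markers ran from 0.084 (Alb) to 0.50 (Cyp2e1). In bulk liver, fewer hepatocytes and less RNA per hepatocyte cannot be told apart. The part of these markers in the results was not tested. The main member results that rest on this mouse are given with and without it. Most slopes of list genes for carbohydrate against fat are given only with it, as are correlations with marker lists and array values. A single mouse is all there was of its diet, so its diet and the mouse itself cannot be told apart.

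Exchanging fat for carbohydrate at fixed protein moved no member past the test. Pklr, the liver pyruvate kinase of the last step of glycolysis, and Khk, the ketohexokinase that phosphorylates fructose, had the largest positive slopes of the 6. For 10 points of energy moved from fat to carbohydrate, Pklr changed by 0.18 ± 0.072 and Khk by 0.091 ± 0.036 on the log2 scale (SE, n = 48), with unadjusted p of 0.0178 and 0.0150 in limma and an adjusted p of 0.999 for each. Over 55 points, the span of the 5% protein diets, the Pklr slope is a 1.97-fold difference (95% interval 1.13 to 3.42), and 1.67-fold (1.03 to 2.70) without the Medium 14/29/57 mouse. The Khk slope is 1.41-fold (1.07 to 1.86), and 1.37-fold without that mouse. Among the High energy mice alone, the Pklr slope was 0.091 ± 0.053 and the Khk slope 0.075 ± 0.038 (adjusted p 0.9997 for each). The share of genes called was 0%, 0 of 16926, with 665 at an unadjusted p under 0.05, so the members' count of 0 of 6 equals that background. The median slope was 0.055 over the 6 members and 0.0018 over all genes tested.

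At 5% protein, Pklr had levels of 9.82 and 10.03 in the mice on 5/20/75, of 9.69, 10.31, 10.40 and 10.54 on 5/48/48, and of 10.33, 10.42, 10.71 and 10.82 on 5/75/20. The carbohydrate-rich mice lay above both fat-rich mice, and the middle diet overlapped each. At 14% protein, Pklr had 10.83 and 10.49 on Medium and 10.49 and 9.24 on High 14/57/29, against 6.98 on Medium and 10.56, 9.82, 9.63 and 9.17 on High 14/29/57. These groups overlapped, and the mean difference of 1.03 was 0.47 without the Medium 14/29/57 mouse. At 23% protein, Pklr had 9.73 and 9.94 on 23/65/12, against 8.57 to 10.26 (median 10.04) in the 7 mice on 23/38/38. At 33% protein, it had 9.90 and 8.73 on High and 10.38 and 8.31 on Medium 33/47/20, against 9.41 and 9.21 on High and 9.43, 8.56 and 7.95 on Medium 33/20/47. The carbohydrate-rich mean was above the fat-rich one at 4 of 4 protein shares, and the mice overlapped at all of these but 5%. Within a protein share, the fitted Pklr slope was 0.12 ± 0.11 at 5%, 0.41 ± 0.17 at 14%, -0.024 ± 0.22 at 23% and 0.14 ± 0.17 at 33% (SE), none of them past the test. Without the Medium 14/29/57 mouse, the slope at 14% was 0.18 ± 0.16, and among High energy mice alone it was 0.025 ± 0.14 at 14% and 0.0028 ± 0.16 at 33%.

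Khk at 5% protein had levels of 10.05 and 10.07 on 5/20/75, of 9.74, 10.24, 10.28 and 10.64 on 5/48/48, and of 10.54, 10.66, 10.68 and 11.02 on 5/75/20. The 4 carbohydrate-rich mice lay above both fat-rich mice, and 1 mouse of the middle diet reached into their range. At 14% protein, Khk had 10.93 and 10.51 on Medium and 10.20 and 10.14 on High 14/57/29, against 9.54 on Medium and 10.45, 10.11, 9.98 and 9.65 on High 14/29/57. The groups overlapped through 1 fat-rich mouse, and their means differed by 0.50, or 0.40 without the Medium mouse. The 2 mice on 23/65/12 had 10.73 and 9.86, against 9.999 to 10.67 (median 10.19) on 23/38/38. At 33% protein the carbohydrate-rich mean was the lower one, at 10.10 ± 0.48 (SD, n = 4) on 33/47/20 and 10.24 ± 0.34 (SD, n = 5) on 33/20/47. The Khk slope was 0.13 ± 0.051 at 5%, 0.21 ± 0.080 at 14%, -0.053 ± 0.10 at 23% and -0.063 ± 0.082 at 33% protein (SE). Unadjusted p was 0.0144 and 0.0128 at the 2 lower protein shares, with adjusted p of 0.99998 and 0.328. Without the Medium 14/29/57 mouse, the Khk slope at 14% was 0.19 ± 0.086 (limma unadjusted p 0.0364, adjusted p 0.9997). Among High energy mice alone, the Khk slope was 0.045 ± 0.094 at 14% and -0.17 ± 0.11 at 33% protein.

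No member passed the test at any protein share. The share of genes called was 0.0414% at 5% protein (7 genes, 0.0177% up and 0.0236% down) and 0% at 14, 23 and 33%. There, 1713, 787 and 1137 genes had an unadjusted p under 0.05. Without the Medium 14/29/57 mouse, 482 genes had one at 14% protein. Whether a slope differed between protein shares was tested with an F test over the 3 differences of the 4 slopes. It called 0 of 6 members and 0% of all genes, with 1148 genes at an unadjusted p under 0.05. Khk had the lowest adjusted p of the members there, 0.729, and Pklr had 0.803, so no member's slope is shown to differ between protein shares.

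**Figure D1:**
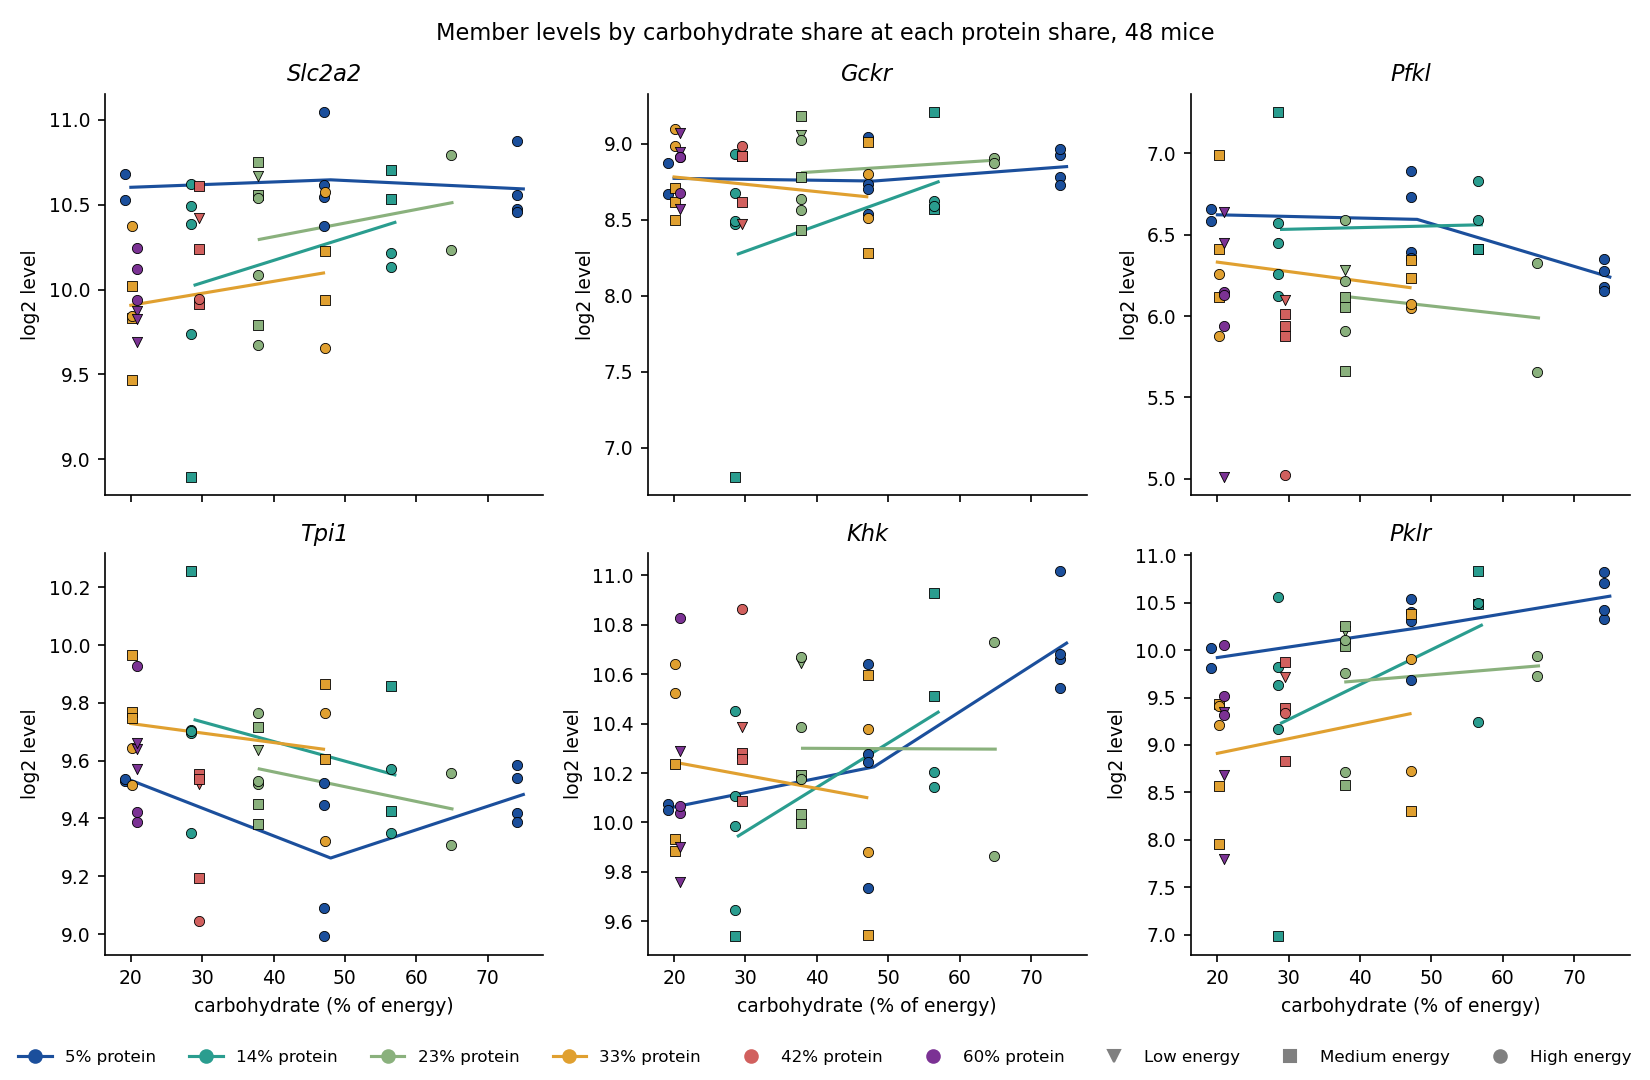
Log2 level of each measured gene (vertical axis) against the carbohydrate share of energy (horizontal axis) in 48 mice, with colour for protein share, marker shape for energy level and lines joining the means of 1 protein share; points are moved slightly sideways to keep protein shares apart. Khk and Pklr lie higher at 75% than at 20% carbohydrate in the 5% protein mice, and 1 mouse on Medium 14/29/57 lies below all others for Slc2a2, Gckr and Pklr.

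The other 4 members had slopes of less than 0.07 in size. Slc2a2 encodes GLUT2, the transporter that carries glucose and fructose across the hepatocyte membrane. Its slope was 0.061 ± 0.039, and its means at 5% protein were nearly level, at 10.60 ± 0.11 on 5/20/75 (SD, n = 2), 10.65 ± 0.29 on 5/48/48 (n = 4) and 10.59 ± 0.20 on 5/75/20 (n = 4). Gckr, the glucokinase regulatory protein, had a slope of 0.048 ± 0.037, which was 0.016 ± 0.025 without the Medium 14/29/57 mouse. At 14% protein its slope was 0.20 ± 0.083 with that mouse (unadjusted p 0.0227, adjusted p 0.387) and 0.044 ± 0.064 without it. Gckr levels were 8.57 to 9.21 in the 4 mice on 14/57/29 and 8.47 to 8.93 in the 4 High energy mice on 14/29/57, against 6.81 in the Medium one.

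Pfkl is the liver subunit of phosphofructokinase, the committed step of glycolysis, and its slope was -0.064 ± 0.039. It had levels of 6.59 and 6.66 on 5/20/75, of 6.36, 6.39, 6.73 and 6.89 on 5/48/48, and of 6.16, 6.18, 6.27 and 6.35 on 5/75/20. All carbohydrate-rich mice at 5% protein lay below every mouse of the other 2 diets, while at the other 3 protein shares the groups overlapped. Among High energy mice at 14% protein, the Pfkl order was the reverse and the groups did not overlap, with 6.83 and 6.59 on 14/57/29, against 6.57, 6.45, 6.26 and 6.12 on 14/29/57. That Pfkl slope at 5% protein, -0.078 ± 0.055, did not pass the test (adjusted p 0.99998). Tpi1, triose phosphate isomerase, which interconverts the 2 triose phosphates, had a slope of -0.031 ± 0.024. Its carbohydrate-rich mean was above the fat-rich one at 0 of 4 protein shares, by differences of -0.19 to -0.049 each smaller than the larger SD of the 2 groups. The carbohydrate-rich mean was the higher one at 3 of 4 protein shares for Slc2a2 and Gckr, 2 for Khk and 1 for Pfkl. At 5% protein the 2 Pfkl groups at the ends of the carbohydrate range were the only ones in these 4 genes that did not overlap. Groups of 4 and 2 mice, here and for Pklr and Khk, can lie apart by order alone. The share of all genes that did so was not counted.

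**Figure D2:**
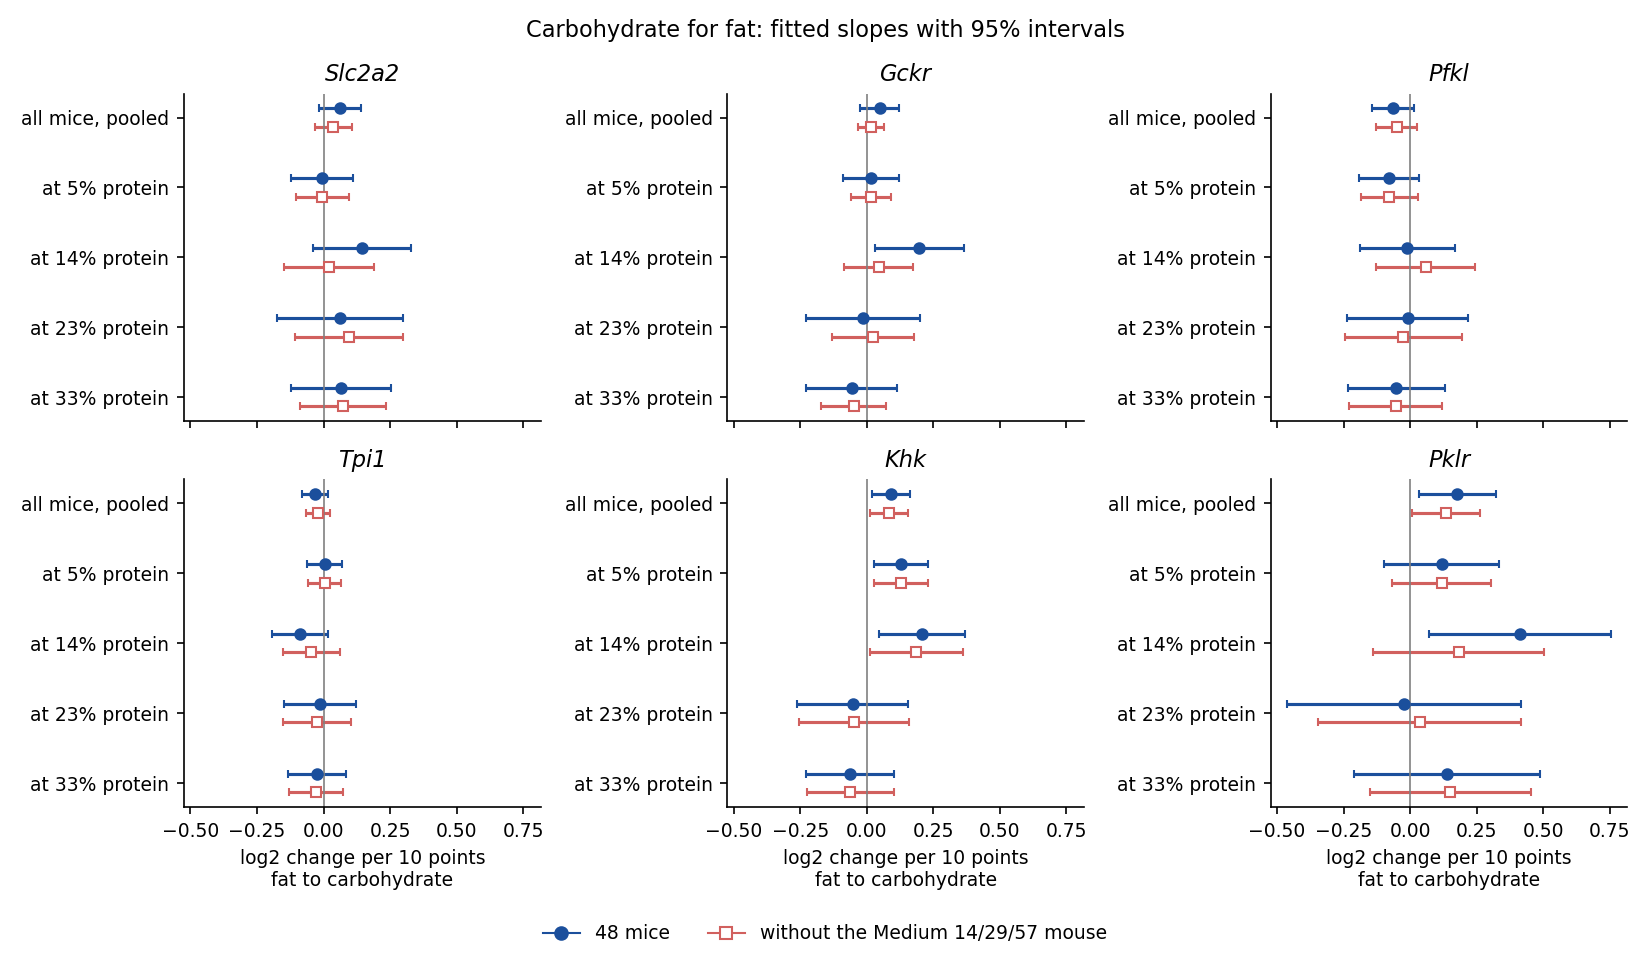
Fitted log2 change for 10 points of energy moved from fat to carbohydrate (horizontal axis), pooled and at each protein share, for each measured gene, with 95% intervals from limma in 48 mice (filled) and without the Medium 14/29/57 mouse (open). The Pklr and Gckr estimates at 14% protein move towards 0 without that mouse, to 0.18 and 0.044, and the Khk estimates at 5 and 14% stay above 0.

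Across protein shares, Pfkl was the one member that fell with protein in the test. Its slope for 10 points of energy moved to protein, taken from carbohydrate and fat in equal parts, was -0.12 ± 0.036 on the log2 scale (SE, n = 48, limma adjusted p 0.0304). Over 55 points that is 0.625-fold (95% interval 0.475 to 0.823). Of the members, 1 of 6 was called, while the share of all genes called for this slope was 7.01% (1187 of 16926), with 3.37% rising and 3.65% falling. The median slope was -0.055 over the members and -0.0019 over all genes tested. From 5 to 60% protein, Pfkl averaged 6.46 ± 0.25 (SD, n = 10), 6.55 ± 0.33 (n = 9), 6.09 ± 0.31 (n = 9), 6.26 ± 0.32 (n = 9), 5.79 ± 0.44 (n = 5) and 6.05 ± 0.57 (n = 6), so the order was not a steady one. The 2 lowest Pfkl mice were on Low 60/20/20 (mouse 141, 5.01) and High 42/29/29 (mouse 440, 5.02), and the next had 5.65.

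The Pfkl call did not hold without mouse 440 (slope -0.10, adjusted p 0.0736) or without mouse 435 on High 5/48/48 (slope -0.12, adjusted p 0.0510). Pfkl correlated with the IQR of the arrays over the 48 mice (r = 0.61), as did Slc2a2 (0.58) and Pklr (0.46), and the mean IQR was 3.43 to 3.58 in the 3 diets at 5% protein, against 3.03 to 3.28 in the 2 groups at 60%. With the IQR as a term, the Pfkl slope was -0.068 (adjusted p 0.482) and 113 genes were called. Taking the protein from carbohydrate at fixed fat also left Pfkl outside the call (-0.091, adjusted p 0.182). Over the 48 mice Pfkl also correlated with the means of the endothelial (r = 0.54), macrophage (0.48) and stellate (0.45) lists. Slc2a2 correlated with the stellate (0.55), erythroid (-0.49) and pancreatic (-0.61) lists, and Pklr with the erythroid (-0.45) and pancreatic (-0.48) lists. Genes of the pancreatic list averaged 0.99 to 3.96 and those of the erythroid list 1.79 to 2.09, against array medians of 1.57 to 1.86. Most of these levels are near the floor, so neither list is read as a measure of cell content here. The part of these lists in the slopes was not tested.

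Slc2a2 and Pklr had negative protein slopes that missed the test with all mice and passed it without the Medium 14/29/57 mouse. With all mice the slopes were -0.10 ± 0.036 for Slc2a2 (adjusted p 0.0693) and -0.17 ± 0.066 for Pklr (adjusted p 0.0929). Without that mouse they were -0.12 ± 0.031 (adjusted p 0.0116) and -0.21 ± 0.058 (adjusted p 0.0206), and Pfkl stayed called at -0.11 ± 0.035 (adjusted p 0.0409). The background then was 7.62% (1289 genes), with 704 of them falling, against 3 of 6 members. With the IQR as a further term, none of the 3 was called. Slc2a2 levels ran from 9.69 to 10.24 (median 9.91) in the 6 mice at 60% protein, against 10.37 to 11.05 (median 10.55) in the 10 mice at 5%. These ranges did not overlap, and the means differed by 0.67. The share of all genes with ranges apart in this comparison was not counted. Pklr ran from 7.80 to 10.05 (median 9.33) at 60% protein, against 9.69 to 10.82 (median 10.37) at 5%, and there the ranges overlapped. In the same comparison Khk, Gckr and Tpi1 also overlapped, and their slopes were -0.0077 ± 0.033, 0.039 ± 0.034 and 0.0012 ± 0.022.

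**Figure D3:**
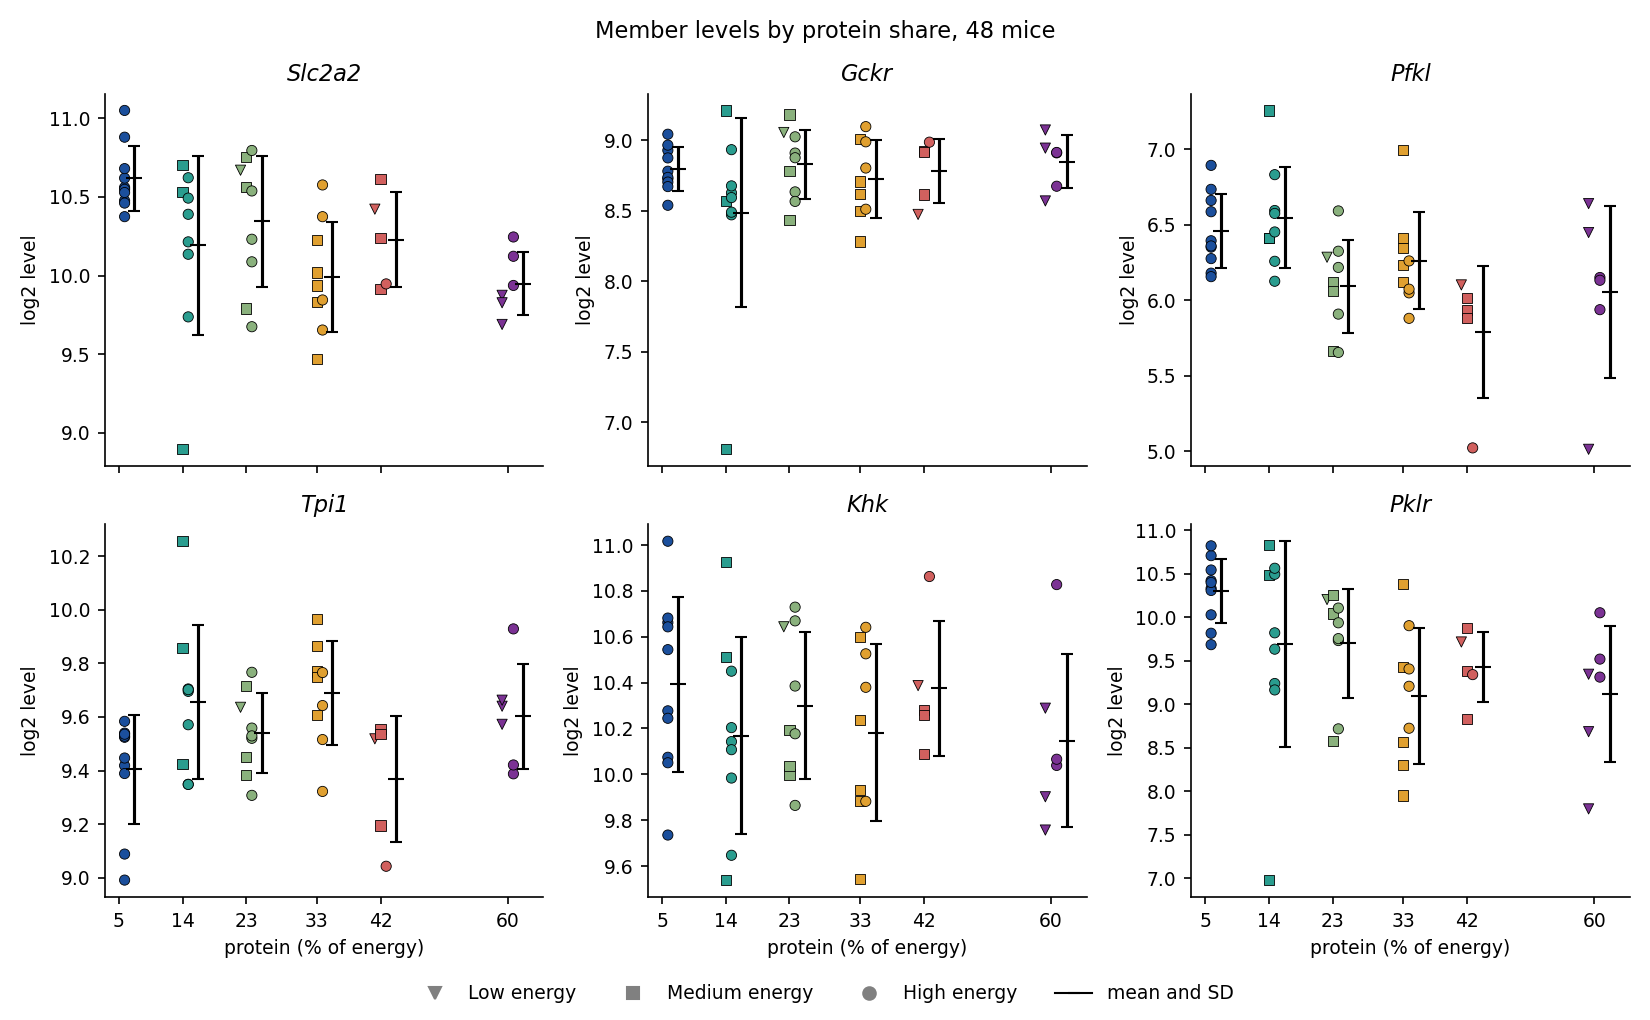
Log2 level of each measured gene (vertical axis) against the protein share of energy (horizontal axis) in 48 mice, with colour for protein share, marker shape for energy level, and the mean and SD beside each protein share. Slc2a2 at 60% protein (9.69 to 10.24) lies below its range at 5% (10.37 to 11.05).

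By energy level, no member passed the test. Pklr averaged 9.15 ± 0.94 in Low (SD, n = 5), 9.28 ± 1.12 in Medium (n = 14) and 9.85 ± 0.57 in High energy mice (n = 29). Without the Medium 14/29/57 mouse, Medium averaged 9.46 ± 0.94 (n = 13), with 7.95 as its lowest. The High mice include all 10 mice at 5% protein, where Pklr averaged 10.31 ± 0.37. With all mice, the lowest, median and highest Pklr levels were 7.80, 9.35 and 10.20 in Low, 6.98, 9.41 and 10.83 in Medium and 8.72, 9.82 and 10.82 in High, so the levels overlapped throughout. At equal composition in the model, High minus Medium was 0.39 ± 0.23 (adjusted p 0.692), and 0.18 ± 0.20 without the Medium 14/29/57 mouse. Tpi1 was the member with the smallest unadjusted p here, 0.0340, for a difference of -0.17 ± 0.078 (adjusted p 0.577). Without the Medium 14/29/57 mouse, the Tpi1 difference was -0.12 ± 0.074 (limma unadjusted p 0.108, adjusted p 0.999). The other 4 differences were 0.13 for Slc2a2, 0.19 for Gckr, 0.15 for Khk and -0.093 for Pfkl, each with an interval that holds 0. Without that mouse they were 0.021, 0.038, 0.11 and -0.030, in the same order. The share of genes called was 0%, with 1376 at an unadjusted p under 0.05, and 885 without that mouse.

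In 6 compositions both High and Medium energy mice were measured. The High mean was above the Medium one in 5 of them for Khk, 4 for Gckr, 3 for Slc2a2, 2 for Pfkl and Pklr and 1 for Tpi1. Averaging these 6 contrasts equally called 1899 of the 16926 genes tested. Among the 6 members it called Gckr (0.35 ± 0.097, adjusted p 0.0147) and Tpi1 (-0.26 ± 0.082, adjusted p 0.0333). Both calls rest on the single Medium 14/29/57 mouse. In the 5 compositions left without it, Gckr had 0.055 ± 0.10 (adjusted p 0.819), Tpi1 had -0.18 ± 0.087 (adjusted p 0.30), and 2 genes were called. In the pair on 33/20/47, Khk had 10.64 and 10.53 on High, against 10.24, 9.93 and 9.88 on Medium, and Gckr had 9.10 and 8.99 on High, against 8.71, 8.62 and 8.50 on Medium. In that composition neither gene's groups overlapped. Groups of 2 and 3 mice can lie apart by order alone, and the share of all genes that did so was not counted. The arrays split by Y-linked against Xist values, with the Y-linked value higher in 24 of 48, and that split differed between these groups, being higher in 0 of 2 High and 2 of 3 Medium mice. Over the 48 mice this value correlated with Gckr (r = -0.35) and less with Khk (0.0040). These correlations were not computed without the Medium 14/29/57 mouse, and the part of this value here was not tested. On 14/57/29 the order was the other way for Khk, with 10.20 and 10.14 on High, against 10.93 and 10.51 on Medium.

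Low energy could be set against High with 3 mice each at 60/20/20. Pklr had 7.80, 8.69 and 9.35 on Low, against 9.31, 9.52 and 10.05 on High. The groups overlapped by 1 mouse, and the difference was -1.02 ± 0.48 (SE), with an unadjusted p of 0.0425 and an adjusted p of 0.476. Slc2a2 had 9.69, 9.83 and 9.87 on Low, against 9.94, 10.12 and 10.24 on High, which did not overlap, for a difference of -0.30 ± 0.26 (adjusted p 0.686). The share of all genes whose Low and High mice lay apart here was not counted. Khk differed by -0.33 ± 0.25, while Gckr, Pfkl and Tpi1 differed by 0.030, -0.040 and 0.046. None of the 6 was called, and the share of genes called was 0%, with 1710 at an unadjusted p under 0.05.

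**Figure D4:**
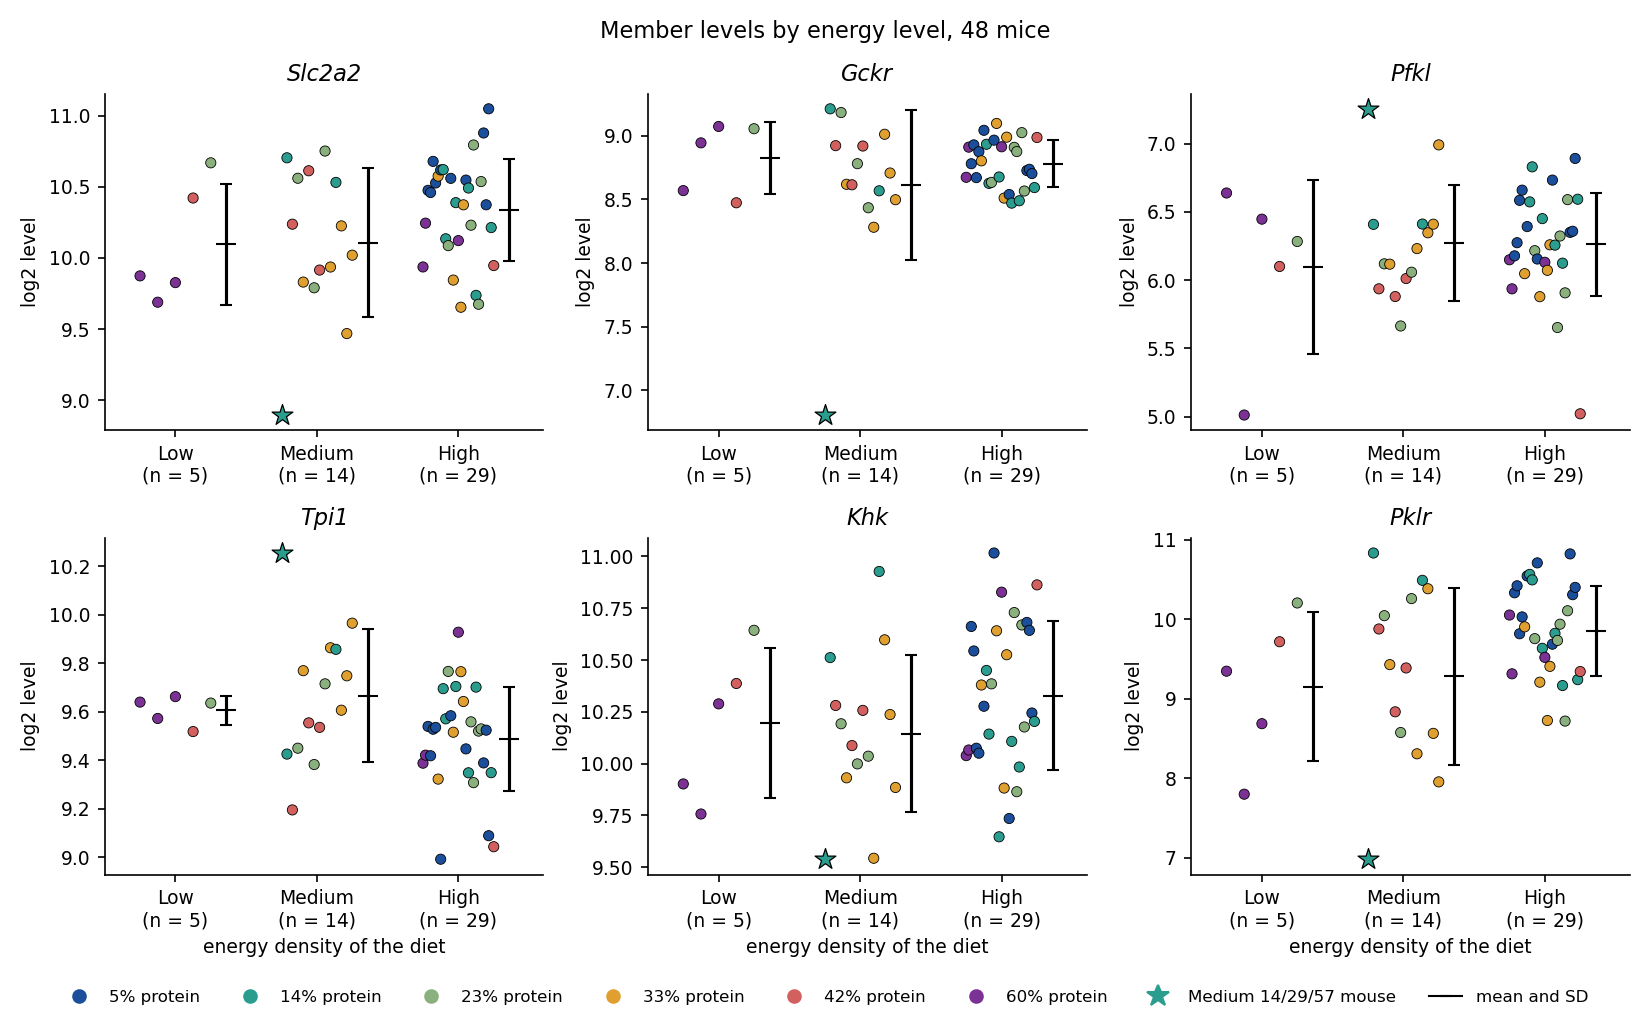
Log2 level of each measured gene (vertical axis) at Low, Medium and High energy (horizontal axis, 5, 14 and 29 mice), with colour for protein share and the mean and SD beside each level; the star is the Medium 14/29/57 mouse. The levels overlap for all 6 genes, and the star lies at an end of the range in each panel, with 6.81 for Gckr and 6.98 for Pklr.

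Among themselves, the members did not vary as a block. Slc2a2 and Pklr were the most alike, with r = 0.79 and Spearman's rho = 0.75 over the 48 mice. Both had a permutation p of 1e-05, the smallest that 100000 permutations can give, and an adjusted p of 0.00015 over the 15 pairs. The r was 0.72 without the 2 mice farthest from the median of Slc2a2, 0.74 without the Medium 14/29/57 mouse, 0.80 and 0.78 in mice numbered under 300 (n = 34) and over 300 (n = 14), and 0.51 after the mean of each diet combination was taken out. Khk went with Pklr (r = 0.53, rho = 0.47, permutation p 0.00013 and 0.00086, adjusted p 0.00065 and 0.0043) and with Gckr (r = 0.53, rho = 0.55, permutation p 3e-05 and 0.00014, adjusted p 0.000225 and 0.00105). Without the 2 farthest mice these were 0.44 and 0.45.

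Tpi1 ran against Gckr (r = -0.53, rho = -0.32, permutation p 0.0002 and 0.0268, adjusted p 0.00075 and 0.0803). That relation weakened to r = -0.28 without the 2 farthest mice and -0.34 without the Medium 14/29/57 mouse. Slc2a2 and Gckr had r = 0.41 and rho = 0.11 (permutation p 0.00759 and 0.439, adjusted p 0.0126 and 0.439), and r was 0.059 without the 2 farthest mice, so it rests on them. In all, 10 of 15 pairs had a permutation adjusted p under 0.05 for r. That count was 8 without the Medium 14/29/57 mouse, 6 after diet means were taken out and 1 in mice numbered over 300. For rho, only Slc2a2 with Pklr and with Tpi1, and Khk with Pklr and with Gckr, had an adjusted p under 0.05. The share among pairs of other genes was not counted. Array IQR and marker levels differed between the mice, and their part in these pairs was not tested.

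**Figure D5:**
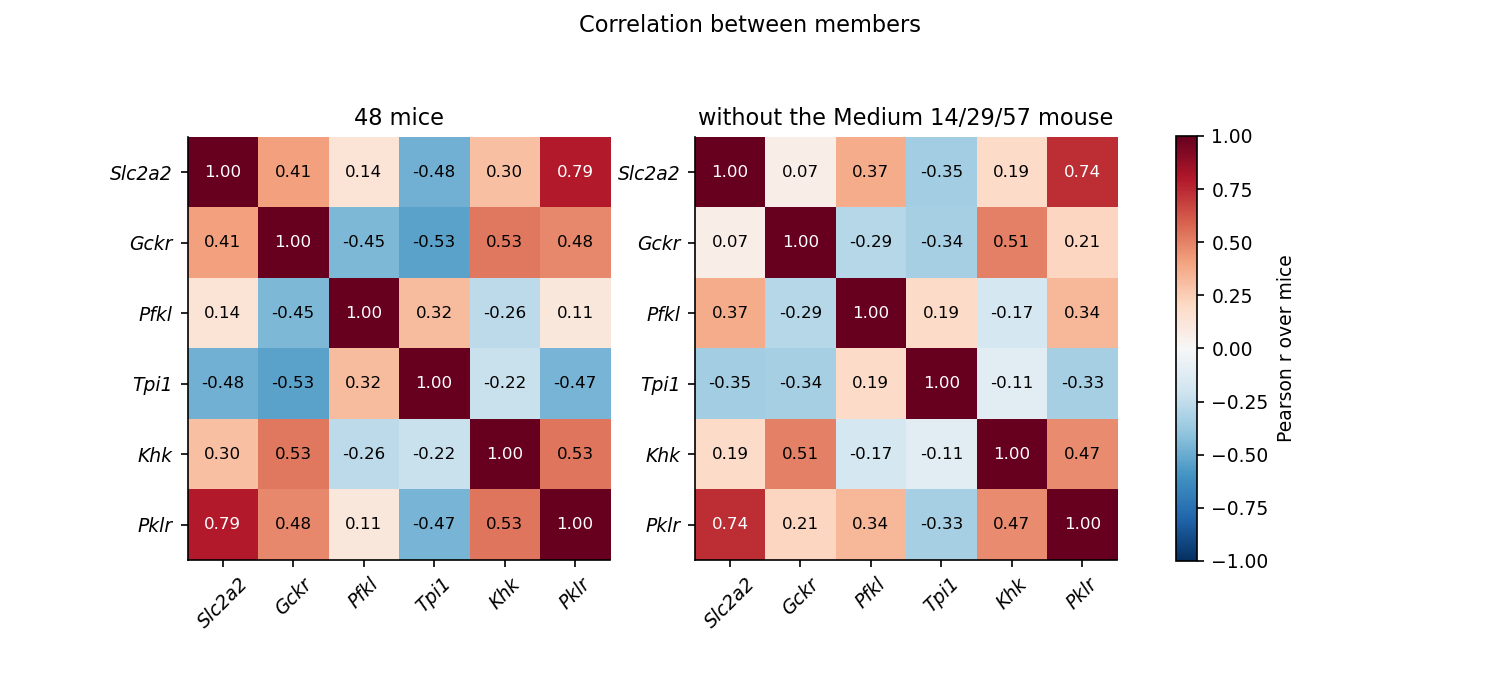
Pearson r between pairs of measured genes over 48 mice (left) and without the Medium 14/29/57 mouse (right), with colour from -1 (blue) to 1 (red). Slc2a2 and Pklr keep r = 0.74 without that mouse, while Slc2a2 and Gckr drop to 0.07.

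The genes most like each member over the 48 mice, by Pearson r, were picked as the 3 highest for each. For Pklr they were Elovl6 (r = 0.87), which elongates fatty acids, Acaca (0.85), the acetyl-CoA carboxylase that starts fatty acid synthesis, and Tmie (0.82). Without the Medium 14/29/57 mouse these were 0.83, 0.80 and 0.77. Slc2a2 was most like Got2 (0.83), the mitochondrial aspartate aminotransferase, Gabbr2 (0.81) and Reep6 (0.81). Khk was most like Mtfp1 (0.73), Galm (0.72), a mutarotase of hexoses, and Nmnat1 (0.70), an enzyme of NAD synthesis. Tpi1 was most like Pgam1 (0.70), the phosphoglycerate mutase of lower glycolysis, Uxs1 (0.69) and Atp6v0d1 (0.64). Pfkl was most like Mgat4b (0.76), Tgm2 (0.75) and Gnb1 (0.74). For Gckr the nearest were Pon1 (0.89), Lect2 (0.87) and Ces1c (0.85), which fell to 0.67, 0.60 and 0.57 without the Medium 14/29/57 mouse.

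The rest of the pathway was read from 8 gene lists, which hold none of the 6 members. For carbohydrate against fat, 0 genes of any list were called over all mice or at any protein share. Without the Medium 14/29/57 mouse 1 was, Scd1 at 5% protein (0.39 ± 0.078, adjusted p 0.0231), where the background was 0.0709%. Among 16 ChREBP genes and targets, the smallest p belonged to the lipogenic Scd1 (0.27 ± 0.074), Elovl6 (0.33 ± 0.095) and Acaca (0.20 ± 0.063), with adjusted p of 0.991, 0.999 and 0.999. The list's median slope was 0.078 (0.057 without that mouse), against 0.0018 over all genes tested. Of 8 measured fructose, sorbitol and hexose transport genes, Tkfc, the triokinase that acts after Khk in fructose breakdown, had 0.091 ± 0.043, Slc2a5, the fructose transporter, 0.12 ± 0.066, and Aldh2 0.038 ± 0.023. In the 12 measured glycolytic genes the median was -0.029 (-0.0066 without the Medium 14/29/57 mouse), and Hk3, Pkm and Hk2, hexokinases and a pyruvate kinase that predominate outside hepatocytes, had -0.17 ± 0.053, -0.12 ± 0.063 and -0.056 ± 0.047.

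In 12 measured glycogen genes, Pygl, the liver glycogen phosphorylase, and Gbe1, the branching enzyme, had slopes of 0.10 ± 0.033 and 0.087 ± 0.033, and Gyg had -0.092 ± 0.054, and the list's median was 0.00075 (-0.0096 without the Medium 14/29/57 mouse). Among 9 gluconeogenic genes, Fbp1, Slc37a4 and Gpd2 had 0.040 ± 0.031, 0.049 ± 0.041 and 0.049 ± 0.049, with a median of 0.020 (-0.0011 without that mouse). Of 6 measured pentose phosphate genes, Pgls, Pgd and Rpia had 0.066 ± 0.037, 0.060 ± 0.043 and -0.038 ± 0.044 (median 0.012). Of 5 genes of fructose-2,6-bisphosphate turnover and glucokinase control, Foxa2, Pfkfb2 and Tigar had 0.14 ± 0.057, 0.077 ± 0.050 and 0.026 ± 0.029 (median 0.026). Of 8 measured liver transcription factors, Onecut1, Usf1 and Hnf4a had 0.32 ± 0.13, -0.041 ± 0.038 and 0.046 ± 0.045 (median 0.0058, and -0.0012 without that mouse). These slopes had adjusted p of 0.999.

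With protein, 7 of 76 measured genes of these lists were called (9.21%, against 7.01% of all genes), and they are named although they were chosen after their values were seen. Pgk1, the phosphoglycerate kinase of lower glycolysis, rose (0.072 ± 0.023, adjusted p 0.0496), as did Aldh1b1 (0.24 ± 0.065, adjusted p 0.0193). Txnip, a ChREBP target (-0.21 ± 0.057, adjusted p 0.0211), the gluconeogenic list's Pck2 (-0.20 ± 0.048) and Gpd2 (-0.17 ± 0.045), Pgm2 of the glycogen list (-0.13 ± 0.040) and Pgd of the pentose phosphate pathway (-0.15 ± 0.040) fell, the last 4 with adjusted p between 0.0079 and 0.0444. Without the Medium 14/29/57 mouse, 12 of 76 were called (15.8%, against 7.62% of all genes). Pgm2 was then no longer called (-0.11 ± 0.036, adjusted p 0.0612), while Pcx (-0.090 ± 0.024, adjusted p 0.0197) and Ppp1r3b (-0.19 ± 0.046, adjusted p 0.00989) were. Of the 16 ChREBP genes, 4 were called then, against 1 with all mice. All 4 fell with protein: Acaca (-0.20 ± 0.041, adjusted p 0.00194), Gpd1 (-0.14 ± 0.030), Txnip (-0.18 ± 0.051) and Fasn (-0.25 ± 0.078). Tkfc fell too then (-0.15 ± 0.029, adjusted p 0.00152), beside Pklr and Slc2a2. With the array IQR as a term, 113 genes in all were called with all mice and 195 without the Medium 14/29/57 mouse. Calls of these list genes under that term are not given here.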

How the data were processed

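Liver RNA of 48 mice was prepared with a Qiagen AllPrep kit, and biotinylated cRNA was made by the Affymetrix method, per the labels' protocols. The deposited values, read as log2 expression from their range (-0.51 to 13.42), were used as the authors deposited them. How the values were background-corrected or normalized, and with which software, is not given in the sources used here. Precision is limited by the number of arrays.

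Of 41345 probe sets, 25335 were listed in the platform annotation, 23521 with 1 symbol and 1814 with several. A gene was its single-symbol probe set with the highest mean. The test took genes whose mean exceeded the 30th percentile of probe set means (1.17). Mice were grouped by energy level and composition from the labels. The members, gene lists, marker lists and alternatives were chosen with earlier results of these data known.

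limma 3.58.1 in R 4.3.3 (lmFit, eBayes with a trend) was fitted to all 48 mice. The additive model had terms for protein, for fat exchanged against carbohydrate, and for energy level. A nested model held a protein factor and an exchange slope at 5, 14, 23 and 33% protein. Low and High energy at 60/20/20 were compared in a fit of the 20 combination means. P-values were two-sided and adjusted by Benjamini-Hochberg over all 16926 genes, at a threshold of 0.05. Pair correlations used 100000 permutations and adjustment over 15 pairs, since 2 of the 8 genes had no probe set. Scripts were tested on simulated data. Named list genes were the 3 with the smallest p for the exchange slope. Genes named for the protein slope were chosen after their values were seen. Mice of 1 combination came from separate cages. In the fit of the 20 combination means, p-values measure the spread between mice of 1 combination. The additive and nested models have fewer terms than there are combinations. Their p-values measure that spread together with the misfit of the combination means.

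Alternatives changed the filter, probe set rule, normalization or array weights, added terms (array IQR, Y-linked minus Xist value, mouse number over 300), or changed the mice or the model. Leaving out the Medium 14/29/57 mouse together with the IQR term, or from the matched compositions, was chosen after seeing the data.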

Additional observations from a re-analysis of the deposited data

Results flagged for a closer look

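Dixon's rule was run 60 times, each on 1 gene within a group of 4 to 7 mice, and some groups shared mice. It flagged 4 values far from the others. Chance flags about 1 in 20 such tests, and 4 of 60 is near that share. Gckr in mouse 118 on Medium 14/29/57 was 6.81, against 8.47 for the nearest of the 5 mice on 14/29/57. Gckr in mouse 120 on Medium 14/57/29 was 9.21, against 8.63 for the nearest of 4 mice on 14/57/29. Pfkl in mouse 440 on High 42/29/29 was 5.02, against 5.88 for the nearest of 5 mice on 42/29/29, and its array had the smallest IQR of 48, 2.78. Tpi1 in mouse 201 on High 14/29/57 was 9.35, against 9.70 for the nearest of the 4 High energy mice on 14/29/57.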

How the results depend on the processing

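For carbohydrate against fat, no member was called under any alternative run, and each of the 6 slopes kept its sign. The other 24 member values (4 genes within protein shares, in their differences and at 60/20/20) changed sign in 62 of 1440 alternatives, and none passed the threshold. The values for the differences are F statistics, which cannot change sign, so these could not count among the 62. The count of members called for protein was 3 with array weights, and 0 with the IQR term, with the IQR and Y-linked minus Xist terms, with protein taken from carbohydrate at fixed fat, and with the IQR term without the Medium 14/29/57 mouse. Leaving out 1 mouse gave 0 to 3. Pfkl was lost without mouse 440 or 435. Pklr was gained without mouse 125 (adjusted p 0.0409) or 118, and Slc2a2 without mouse 126 (0.0344), 154 (0.0443) or 118. High minus Medium in matched compositions called 2 members, beside 1899 of all 16926 genes. The numbers of genes called for protein were 4301 with array weights, 113 with the IQR term, 133 with the IQR and Y-linked minus Xist terms, 630 with diet combination as a random block, 263 and 719 with protein taken from carbohydrate or from fat alone, and 195 with the IQR term without the Medium 14/29/57 mouse. Leaving out 1 mouse gave 588 (mouse 440) to 3004 (mouse 126). With median centring, 309 genes rose and 683 fell, against 570 and 617 as reported. For carbohydrate against fat, 2 genes were called with array weights and 1 with High energy diets alone. At 5% protein the count was 4 with a filter at the 50th percentile, 105 with array weights, and 1 to 12 on leaving out 1 mouse. At 23% it was 1 with no filter, and 0 to 58 on leaving out 1 mouse (58 without mouse 385). At 33% it was 1 with quantile normalization, with the Y-linked minus Xist term and with High energy diets alone, and 0 to 1 on leaving out 1 mouse. At 14% leaving out 1 mouse gave 0 to 7. The test of differences between protein shares called 1 gene with no filter and 1 with High energy diets alone, and 0 to 6 on leaving out 1 mouse. High minus Medium called 2 genes with the Y-linked minus Xist term, 4 with that term and the IQR, 1899 in matched compositions and 2 in those without the Medium 14/29/57 mouse, and 0 to 3 on leaving out 1 mouse. Low minus High at 60/20/20 called 12 genes with array weights, and 0 to 5 on leaving out 1 mouse.

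Signs that turned all belonged to values far from the threshold. Pklr at 23% protein was 0.017 with the IQR term, 0.12 with High energy diets alone, 0.091 with the IQR term without the Medium 14/29/57 mouse, and -0.12 to 0.036 on leaving out 1 mouse. Pklr at 33% ran from -0.030 to 0.25 and Khk at 23% from -0.22 to 0.11 on leaving out 1 mouse. High minus Medium was -0.058 for Pklr and -0.13 for Slc2a2 in matched compositions without the Medium 14/29/57 mouse. The Khk protein slope was 0.018 with High energy diets alone, 0.038 with protein taken from fat, and -0.032 to 0.0062 on leaving out 1 mouse. The Tpi1 protein slope was -0.0043 with quantile normalization, -0.013 with median centring, -0.0024 with the IQR term, -0.0036 with the Y-linked minus Xist term, -0.0017 with diet combination as a random block, -0.014 with protein taken from fat, and -0.017 to 0.011 on leaving out 1 mouse. Pairs of members with an adjusted p under 0.05 numbered 1 in mice numbered over 300 and 6 after diet means were taken out. Where a value moved with a setting, the cause was not tested. No paired analysis was possible because the labels carry a number for each mouse and none that groups share.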
